A study of Rattus norvegicus with 12 samples.

Results

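Gene expression was compared between hippocampi of young rats kept in enriched housing and hippocampi of rats kept alone, all given phosphate-buffered saline (PBS) and no KA. These were 6 of the 12 samples of a study of enrichment and seizure-induced neuronal injury, chosen by their labels: 3 samples of PBS_enriched and 3 of PBS_isolated. Every rat was treated at postnatal day 20. PBS_isolated rats then lived in individual cages for 10 days until tissue was taken, and PBS_enriched rats were kept 8 to a large cage, for a time the labels do not give. The other 6 samples, KA_isolated and KA_enriched, had the same 2 housings after KA, an agent that the labels do not spell out. They serve below as a second look at housing. Their values also enter the expression filter and the estimate of spread used to test genes after PBS. Strain and sex are not given in the labels. Each sample was total RNA pooled from the hippocampi of 3 to 4 animals and read on 1 single-colour oligonucleotide array, so n counts pools. The labels do not say which cage or litter an animal came from. Every p-value is thus relative to variation among pools, which may be partly technical, and housing cannot be told apart from whatever cage mates share. Standard group-housed rats were not among the groups, so a lower value with enrichment cannot be told apart from a higher value with isolation.

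The hippocampus is a forebrain structure needed for spatial and episodic memory, in which signals run from dentate granule cells to the pyramidal cells of CA3 and CA1. Environmental enrichment, with space, objects and company, is a classical way to raise hippocampal activity, growth factor supply and the survival of newborn granule cells in rodents, and social isolation is a stressor in the weeks after weaning. Immediate early genes such as Egr1, Arc and Fos are transcribed within minutes of synaptic activity through CREB and serum response factor, and their messages decay fast.

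The 6 arrays were close to each other. Pearson correlations of log2 values over 9520 probe sets lay between 0.9846 and 0.9889 within the groups and between 0.9852 and 0.9883 across them. Array medians ran from 71.6 to 74.1. Defining markers of hippocampal cells were present in every pool, with Wfs1 of CA1 pyramidal cells at 817 to 1010 and Prox1 of granule cells at 225 to 253 in signal, the linear intensity of a probe set. The log2 ratio of 3 prime to 5 prime beta-actin signal, a sign of RNA integrity, averaged 0.47 in PBS_isolated and 0.55 in PBS_enriched (exact permutation p = 0.2, two-sided; 3 arrays against 3 cannot go below 0.1). For GAPDH the difference was -0.000676 (exact permutation p = 1). For hexokinase it was -0.0671 (exact permutation p = 0.5).

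Housing after PBS went with a difference in 1 gene, and differences in the rest of the transcriptome were small. Differences below are PBS_enriched minus PBS_isolated on the scale log2(signal + 17), with the standard error (SE) of a limma model. After adjustment over 9520 probe sets, limma called 1 at 0.05, which is 0.0105%, and it was Anp32a, lower in enriched rats. Before adjustment 401 probe sets, or 4.21%, had p under 0.05, of which 205 (2.15%) were higher and 196 (2.06%) were lower. With arrays rescaled to equal medians the split was 152 higher among 414, or 36.7% higher against 51.1% in the deposited scaling. All 3 enriched arrays lay above all 3 isolated ones for 523 probe sets (5.49%), and below them for 582 (6.11%). The median absolute difference was 0.0673, against a median SE of 0.0988, and 99 in 100 probe sets differed by less than 0.345. Only 10 probe sets differed by more than 1.5-fold, 5 in each direction, and 2 by more than 2-fold, Anp32a and the choroid plexus gene Ttr. The groups overlapped in 5 of these 10. Differences were larger among dim probe sets: the median absolute difference was 0.0869 in the dimmest 2380 of the 9520 and 0.054 in the brightest 2380, and 6 of the 10 lay in the dimmest 2380.

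**Figure D1:**
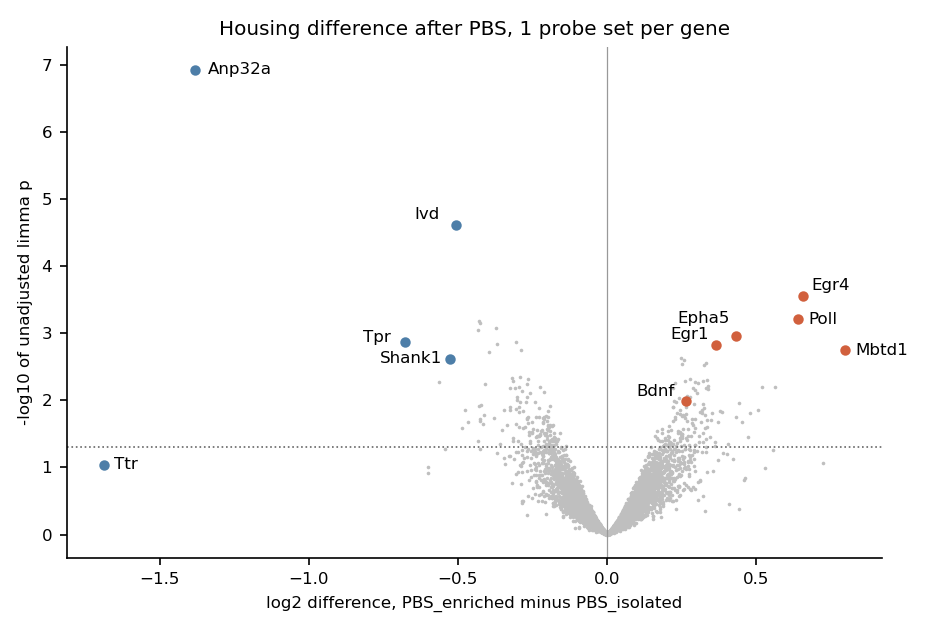
Every point is a gene (6923 in all), placed by its log2 difference (PBS_enriched minus PBS_isolated, horizontal) and the -log10 of its unadjusted limma p (vertical); the dotted line marks 0.05, and named genes are coloured orange where higher and blue where lower. Anp32a stands alone at the top, followed by Ivd, while Ttr has the largest difference, -1.69, and lies below the line.

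Anp32a, which encodes an acidic nuclear phosphoprotein that inhibits protein phosphatase 2A and binds histones, was lower in enriched than in isolated rats. Its signal was 385, 331 and 459 in PBS_isolated and 127, 132 and 159 in PBS_enriched. Every isolated pool lay far above every enriched pool. Means were 392 ± 63.9 (SD, n = 3) and 139 ± 17 (SD, n = 3), a difference of -1.38 (SE 0.134; limma adjusted p = 0.00115), or 2.6-fold. The single Anp32a probe set of the array gives no second reading of the gene. After KA the signal was 167, 162 and 132 in KA_isolated and 116, 83.7 and 98.4 in KA_enriched, again without overlap. That difference was -0.56 (SE 0.134; limma adjusted p = 0.538), and the interaction, the difference after PBS minus that after KA, was -0.82 (SE 0.19; adjusted p = 0.765). PBS_isolated thus held the highest level of the 4 groups.

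Anp32a itself, its relatives, and subunits and regulators of protein phosphatase 2A made up a list of 22 measured genes. Of these 14 were below 0, with a median of -0.0218, against 0.00292 over all genes. Anp32e, a paralogue that removes the histone variant H2A.Z from chromatin, had 311, 297 and 286 in PBS_isolated and 247, 268 and 257 in PBS_enriched. The difference was -0.20 (SE 0.0806; limma adjusted p = 0.998), and the groups did not overlap. A second, dimmer Anp32e probe set pointed the other way, at 0.274, also with an unadjusted p under 0.05. Ppme1, the methylesterase of the phosphatase's catalytic subunit, had 715, 759 and 808 against 689, 669 and 643, a difference of -0.19 (SE 0.0728; adjusted p = 0.998). In arrays after KA it pointed upward, at 0.17. Ppp2r5b, a regulatory subunit, was at 0.24 (SE 0.126). Read by the brightest probe set of each gene, 3 members (13.6%, against 2.02% of 6923 genes) had an unadjusted p under 0.05 on the lower side. On the higher side 0 did (against 2.05%). The 3 were Anp32a, Anp32e and Ppme1. The share thus counts the called gene for which the list was drawn up, and is no separate result for the family.

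Ivd stood next to Anp32a in strength of evidence without passing. It encodes isovaleryl-CoA dehydrogenase, the mitochondrial enzyme of leucine breakdown. Signals were 231, 237 and 228 in PBS_isolated and 171, 142 and 163 in PBS_enriched. The 3 isolated pools were close to each other and all lay above every enriched pool. The difference was -0.51 (SE 0.0797; limma adjusted p = 0.116). It passed with array weights (adjusted p = 0.045) and among the brightest 40% of probe sets (adjusted p = 0.0433). After KA the difference was -0.091 (SE 0.0797).

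The next 10 lower genes by p had differences from -0.68 to -0.29 and limma adjusted p of 0.828 or more. Fxyd6, a small regulator of the sodium pump, had 207, 208 and 184 in PBS_isolated and 155, 136 and 140 in PBS_enriched, a difference of -0.43 (SE 0.0967). Grp, the gastrin-releasing peptide, had 143, 130 and 131 against 108, 88.4 and 90.7 (-0.43, SE 0.101). Hrh3, the histamine H3 receptor that restrains transmitter release, had 200, 194 and 195 against 153, 143 and 171. Its difference was -0.31 (SE 0.0756; limma adjusted p = 0.892), and a second probe set gave -0.077. Shank1, a scaffold of the postsynaptic density, had 60.7, 61.4 and 64.8 against 33.1, 36.5 and 45.3, close to the lowest levels tested (-0.53, SE 0.141). A dimmer Shank1 probe set, outside the test, gave 0.10. These genes were picked by their p, so their lack of overlap, seen on this side in 6.23% of genes, is no further result.

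Tpr, a protein of the nuclear pore basket, had 106, 105 and 99.3 in PBS_isolated and 58.8, 70.8 and 46.8 in PBS_enriched, a difference of -0.68 (SE 0.167). Raver1, an RNA-binding co-regulator of splicing, had 51.3, 59.6 and 53.8 against 41.3, 30.7 and 44.6 (-0.37, SE 0.0919). Ints3, a subunit of the Integrator complex, had 103, 101 and 69.1 against 65.3, 55.2 and 46.6 (-0.56, SE 0.169; adjusted p = 0.998). The transcription factor gene Tshz2 was at -0.37 (SE 0.0863), Zzef1 at -0.40 (SE 0.102; 0.28 in a much dimmer probe set), Tpd52l1 at -0.29 (SE 0.0742) and the uncharacterised LOC102555617 at -0.43 (SE 0.0967). Hip1, a huntingtin-interacting protein of clathrin coats, was at -0.54 (SE 0.162) in 1 probe set and at 0.086, -0.028 and -0.081 in the other 3.

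**Figure D2:**
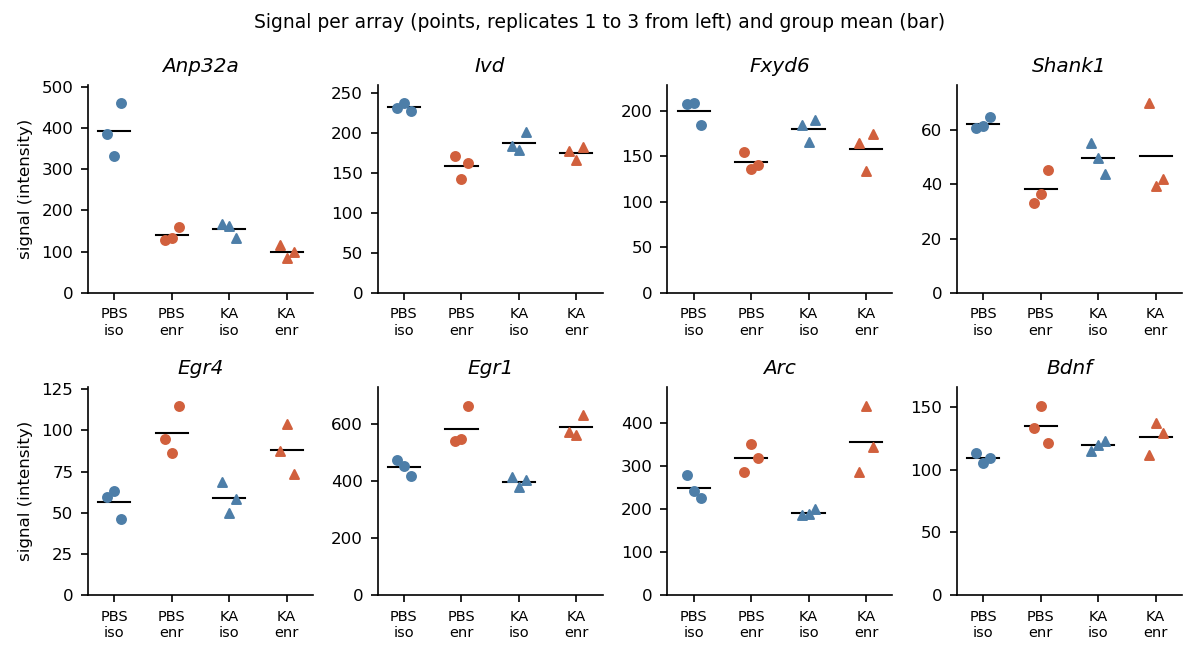
Signal (linear intensity, vertical, from 0) of 8 genes in the 4 groups of 3 arrays, circles after PBS and triangles after KA, blue for isolated (iso) and orange for enriched (enr), with the group mean as a bar. In the PBS groups the orange circles all lie below the blue ones for Anp32a, Ivd, Fxyd6 and Shank1 and all above them for Egr4, Egr1, Arc and Bdnf.

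On the higher side no gene passed. The 12 named genes of smallest p had differences from 0.248 to 0.796 and limma adjusted p from 0.622 to 0.998. Egr4 led them and is described with the immediate early genes. Poll, the DNA polymerase lambda of base excision repair and end joining, had 46.9, 52.1 and 52.9 in PBS_isolated and 81.9, 95.1 and 88.3 in PBS_enriched. The difference was 0.64 (SE 0.143; adjusted p = 0.828). Xrcc4, the partner of DNA ligase IV in end joining, had 48.2, 50.7 and 48.6 against 63.7, 58.2 and 63 (0.25, SE 0.0661; adjusted p = 0.994). Both were picked by their p, so their separate groups, seen on this side in 5.5% of genes, are no further result. Their levels were near the low end of what was tested.

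Epha5, an ephrin receptor of axon guidance and synapse formation, had 160, 177 and 186 in PBS_isolated and 210, 252 and 262 in PBS_enriched (0.43, SE 0.103; limma adjusted p = 0.892). Mbtd1, a reader of methylated histones, had the largest non-overlapping difference on this side, with 85.2, 52.4 and 63.7 against 145, 96.1 and 146 (0.80, SE 0.204). Akap17a, an anchor of protein kinase A that also acts in splicing, had 52.5, 75.9 and 49.9 against 87.7, 84.7 and 83.4 (0.43, SE 0.105; adjusted p = 0.892). It passed without PBS_isolated replicate 2, its highest isolated pool, with adjusted p = 0.0317. The purine synthesis gene Gart was at 0.26 (SE 0.0687), the cell cycle gene Cks1b at 0.33 (SE 0.09; -0.03 in a much dimmer probe set), Reep6 of the endoplasmic reticulum at 0.25 (SE 0.0686), the PDZ adaptor gene Gipc1 at 0.33 (SE 0.0896) and Btbd9 at 0.28 (SE 0.082). By size, Efcab14 (0.56, SE 0.174), Parvb (0.53, SE 0.34) and Fbxl20 (0.51, SE 0.223) followed. For Parvb and Fbxl20 other probe sets were below 0, at -0.261 for Parvb and at -0.13 and -0.018 for Fbxl20.

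Immediate early and activity-regulated genes were higher in some members and near 0 in most. Of 40 on the array 26 were bright enough to test, and 14 of these were above 0, with a median of 0.0298 against 0.00292 over all genes. Without PBS_enriched replicate 1 that median was 0.00903, without PBS_enriched replicate 2 it was 0.0123, and with arrays at equal medians 0.0136. With limma 0 of the 26 passed over all genes. At an unadjusted p under 0.05, 5 of the 26 were higher (19.2%, against 2.05% of 6923 genes) and 0 were lower (against 2.02%). In 8 of the 26 every enriched pool lay above every isolated pool (30.8%, against 5.5% of genes), and in 0 was the order the reverse (against 6.23%). The 5 were Egr4, Egr1, Nr4a2, Junb and Arc. As the 26 members had to pass a filter on their mean over all 12 arrays, these shares describe the measured members only.

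Egr4, a zinc finger transcription factor induced by activity, had 59.4, 63.2 and 46.2 in PBS_isolated and 94.5, 86.3 and 115 in PBS_enriched. All enriched pools were above all isolated ones, by 0.66 in the mean (SE 0.134; limma adjusted p = 0.622). A second Egr4 probe set, below the filter at a mean signal of 20.7, pointed the other way, at -0.19. Egr1, its abundant relative that is used as a marker of recent neuronal activity, had 475, 453 and 416 against 540, 547 and 664 (0.37, SE 0.0916; adjusted p = 0.892). Arc, whose product removes AMPA receptors from synapses, had 280, 241 and 226 against 285, 351 and 319 (0.33, SE 0.132; adjusted p = 0.998), so that its lowest enriched pool was barely above the highest isolated pool. Nr4a2, an orphan nuclear receptor, had 97.8, 103 and 127 against 132, 135 and 143 (0.29, SE 0.0987), but a second, dimmer Nr4a2 probe set gave -0.15. Junb, a component of the AP-1 factor, had 132, 99.8 and 97.6 against 129, 135 and 145 (0.28, SE 0.106), and its groups overlapped through PBS_isolated replicate 1.

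Further members of the family were higher in each enriched pool without reaching an unadjusted p of 0.05. Nr4a3 had 364, 343 and 358 in PBS_isolated and 394, 399 and 409 in PBS_enriched (0.17, SE 0.0932). Ptgs2, the inducible cyclooxygenase, had 83.4, 81.6 and 81.3 against 92, 100 and 96.2 (0.19, SE 0.0976). Jun, a partner in AP-1, was at 0.11 (SE 0.0658) and Dusp6, a phosphatase of the MAP kinase ERK, at 0.077 (SE 0.0973). Nr4a1 was at 0.17 (SE 0.112) with overlap. No remaining member was above Ptgs2, and the lowest of the 26 was the clock gene Per1, at -0.54, with 70.9, 70.1 and 30.4 against 26.5, 57.5 and 19.2 (SE 0.255; adjusted p = 0.998). Homer1 depended on the probe set: its brightest gave -0.068 and another gave 0.34. Fos lay below the filter, with 41.2, 41.6 and 23.6 in PBS_isolated and 36.7, 73 and 72.3 in PBS_enriched for its brighter probe set, an overlap made by PBS_enriched replicate 1. Egr2, below the filter as well, had 31.8, 36.6 and 34.7 against 49.5, 48 and 52.5 without overlap, while a dimmer Egr2 probe set gave -0.00706.

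Promoters of the immediate early genes are shown because the 5 members with an unadjusted p under 0.05 were all higher. Of the 26 measured members 12 were below 0. The stretches are the 250 bases before the start of the 2 Egr genes, 5′ to 3′ on the strand of the gene, from RefSeq on the GRCr8 build. Capitals mark the CREB core motif TGACG or its reverse complement CGTCA and, where present, the CArG box bound by serum response factor. Egr1 lies on the plus strand at chr18:26736828-26737077 and Egr4 on the minus strand at chr4:119607818-119608067.
Egr1: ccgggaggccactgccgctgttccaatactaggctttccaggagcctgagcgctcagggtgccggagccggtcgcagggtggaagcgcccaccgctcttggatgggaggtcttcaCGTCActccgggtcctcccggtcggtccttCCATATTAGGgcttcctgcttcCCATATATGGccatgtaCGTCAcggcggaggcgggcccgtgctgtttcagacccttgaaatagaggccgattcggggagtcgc
Egr4: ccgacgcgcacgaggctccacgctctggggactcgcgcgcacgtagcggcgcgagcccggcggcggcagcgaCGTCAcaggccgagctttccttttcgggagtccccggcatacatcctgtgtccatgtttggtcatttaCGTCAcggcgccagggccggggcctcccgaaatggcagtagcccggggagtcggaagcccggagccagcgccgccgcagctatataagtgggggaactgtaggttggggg
Each holds 2 CREB core motifs, and Egr1 also has 2 CArG boxes. The promoters of Junb and Nr4a2 hold 1 core motif each. At least 1 core motif stood in all 4 promoters of the genes with an unadjusted p under 0.05 that had an entry. It stood in 14 of 20 promoters of the other measured members, among which Crem was entered more than once. The 4 were picked by their p in these data. The full CRE, in which the core TGACG is followed by TCA, stood in 0 of the 4 and in 7 of the 20. Among 33469 rat promoters of this length, 18.2% hold the core motif on either strand, 1.59% the full CRE and 1.5% a CArG box. A match of letters is a description and no evidence of binding.

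The housing comparison after KA used 6 arrays that shared none with the PBS arrays. Both comparisons took the SE of each probe set from the same model, however. A spread estimated too low makes p small in both, so overlaps in p are not independent. There limma passed 0 of 9520 probe sets (lowest adjusted p 0.234), and 668 (7.02%) had an unadjusted p under 0.05. Over all 9520 probe sets the sign after KA was that after PBS in 50.9%, and among the 401 probe sets with an unadjusted p under 0.05 after PBS in 51.1%. There were 53 probe sets with an unadjusted p under 0.05 in both. Of these 32 had the same sign, which is 7.98% of the PBS set and 4.79% of the KA set. Over all probe sets, with both signs counted, 7.02% after KA and 4.21% after PBS had such a p. Non-overlap on the higher side was shared by 39 probe sets, 7.46% of the 523 after PBS and 6.52% of the 598 after KA (6.28% of all tested). On the lower side it was shared by 25, which is 4.3% of 582 and 5.8% of 431 (4.53% of all tested). The reverse order, higher after PBS and lower after KA, was seen for 18 probe sets, and the opposite for 30.

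Of the 12 higher genes of smallest p after PBS, 7 were above 0 after KA, and 4 of these had an unadjusted p under 0.05 there: Egr4 (0.47, SE 0.134), Epha5 (0.30, SE 0.103), Egr1 (0.54, SE 0.0916) and Xrcc4 (0.24, SE 0.0661). Of the 12 lower ones, 8 were below 0 after KA, and Anp32a was the 1 with an unadjusted p under 0.05. Among the immediate early genes 9 of 26 were higher after KA at an unadjusted p under 0.05, against 3.65% of the 6923 genes, and the median was 0.0957. Arc had 185, 188 and 201 in KA_isolated and 285, 440 and 343 in KA_enriched (0.82, SE 0.132). Some genes had opposite signs after PBS and after KA. Hrh3, lower with enrichment after PBS, had 156, 146 and 150 in KA_isolated and 178, 169 and 188 in KA_enriched, all higher with enrichment (interaction -0.53; limma unadjusted p = 0.000274). Reep6 and Gipc1, higher with enrichment after PBS, were at -0.17 and -0.18 after KA. The limma interaction passed for 0 of 9520 (lowest adjusted p 0.194; 473, or 4.97%, had p under 0.05 before adjustment), so a difference between the treatments was not shown for any of these genes.

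**Figure D3:**
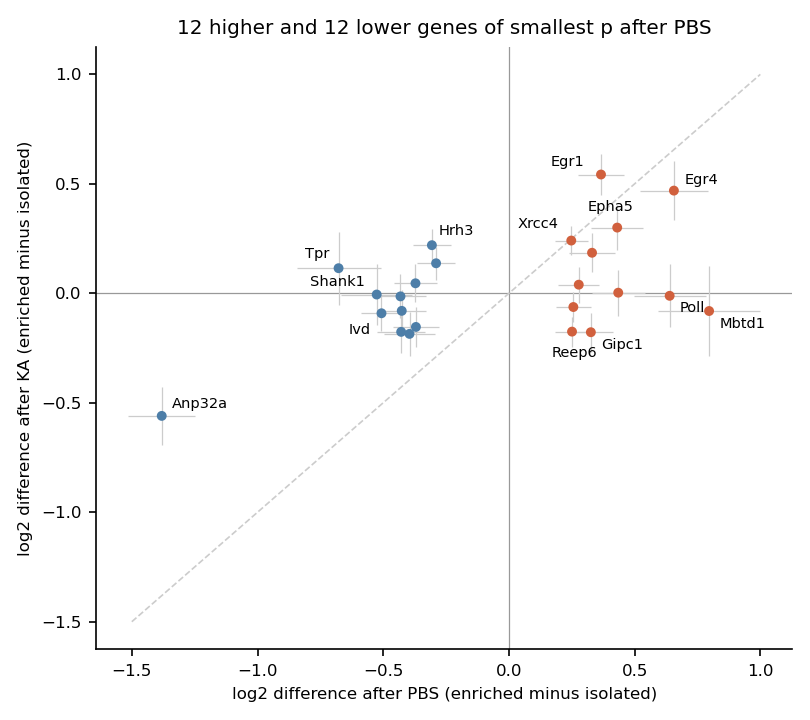
Log2 housing difference (enriched minus isolated) after PBS (horizontal) against that after KA (vertical) for the 12 higher (orange) and 12 lower (blue) genes of smallest p after PBS, with limma SE as bars and the line of equal differences dashed. Egr1, Egr4, Epha5 and Xrcc4 lie above 0 on both axes and Anp32a below 0 on both, while Poll, Mbtd1 and Ivd lie near 0 after KA.

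Growth factors and neuropeptides differed gene by gene. Bdnf, a neurotrophin often studied in enrichment, had 113, 105 and 109 in PBS_isolated and 133, 151 and 121 in PBS_enriched, higher in each enriched pool (0.26, SE 0.0882; limma adjusted p = 0.998). It was the 1 member at an unadjusted p under 0.05 among 13 growth factor and receptor genes (7.69%, against 2.05% of genes on the higher side). The median of the 13, -0.0505, changed sign under 5 of 17 other settings. A second Bdnf probe set, below the filter, was at -0.041. After KA Bdnf was at 0.063 (SE 0.0882). The neurturin receptor gene Gfra2 was lower without overlap (-0.15, SE 0.0768), while its much dimmer probe set gave 0.42. Of 19 neuropeptide and receptor genes 11 were below 0. Sst, the peptide of a class of dendrite-targeting interneurons, had 584, 598 and 533 against 496, 415 and 472 (-0.30, SE 0.1; adjusted p = 0.998). Its receptor gene Sstr4 had 65.6, 65.5 and 80.6 against 53.2, 51 and 58.9 (-0.29, SE 0.0852; adjusted p = 0.998). Somatostatin and this receptor were therefore lower in every enriched pool, while the receptor was at 0.27 (SE 0.0852) after KA. Cck, the cholecystokinin of another interneuron class, was lower without overlap (-0.16, SE 0.0782), and Npy, with 419, 441 and 409 against 508, 469 and 452, was higher without overlap (0.16, SE 0.0869).

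Interneuron markers lay on both sides of 0. Of 11 measured, 3 were lower without overlap (27.3%, against 6.23% of genes), Sst and Cck among them, and 1 was higher without overlap (9.09%, against 5.5%), which was Npy. Their median was 0.00117 and took the other sign in 7 of 17 settings. Gad2, an enzyme of GABA synthesis, was at 0.28 (SE 0.15) with overlapping groups. Granins and peptide-processing genes gave 3 of 10 without overlap on the higher side (30%, against 5.5% of genes) and 0 on the lower side (against 6.23%): Chga (0.18, SE 0.104) and Chgb (0.097, SE 0.0664), which encode cores of dense vesicles, and the convertase gene Pcsk2 (0.22, SE 0.129). Their list median was -0.03.

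Receptors for transmitters differed gene by gene. Of 16 monoamine, acetylcholine, histamine and adenosine receptor genes 12 were below 0, with a median of -0.043, which stayed below 0 in each of 17 other settings and was smaller than the spread of the list score between pools, 0.0586. Adora1, the inhibitory adenosine A1 receptor, went against them with 88.5, 104 and 101 in PBS_isolated and 118, 118 and 121 in PBS_enriched (0.25, SE 0.092; limma adjusted p = 0.998), while a second probe set gave -0.066. Htr2c, a serotonin receptor, had 398, 369 and 401 against 352, 331 and 351 (-0.17, SE 0.0896). Among 10 AMPA and kainate receptor genes 0 had an unadjusted p under 0.05 in limma, and Gria1, an AMPA receptor subunit, varied from 262 to 531 within PBS_isolated (0.42, SE 0.218). In 5 NMDA receptor genes, 5 metabotropic glutamate receptor genes and 8 GABA receptor genes the count was 0 too. Gabra5, the subunit of extrasynaptic GABA-A receptors, was the 1 gene of these 4 families with separate groups. That is 12.5% of the 8 GABA receptor genes, against 5.5% of all genes. It had 594, 575 and 650 against 709, 659 and 695 (0.18, SE 0.112). The medians of these 4 families were 0.00711, -0.00433, -0.101 and 0.00692, and each changed sign under 4 or more of 17 settings. No shift of these 4 families was detectable with 3 pools a side.

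Synaptic genes lay on both sides of 0. Of 26 synaptic vesicle and release genes 11 were above 0, and the median, -0.0238, was smaller than the spread of the list score between pools, 0.0262. Without overlap 5 were lower (19.2%, against 6.23% of genes) and 2 higher (7.69%, against 5.5%). Syn1, which tethers vesicles, had 1470, 1400 and 1290 in PBS_isolated and 1190, 1270 and 1280 in PBS_enriched (-0.15, SE 0.0917), and the priming factor gene Unc13a had 52.5, 58.6 and 55.6 against 44.7, 44.9 and 43.2 (-0.24, SE 0.132). Svop, a transporter-like vesicle protein, was higher in each enriched pool (0.28, SE 0.131), and so was Sv2a (0.18, SE 0.107). Among 32 postsynaptic and kinase genes 13 were above 0 and the median was -0.0248, which turned positive in 2 of 17 settings. Creb1, the factor that binds the core motif marked above, had 99.9, 119 and 92.5 against 128, 128 and 144 (0.32, SE 0.132), and Camk1, a calcium-dependent kinase, had 133, 146 and 126 against 108, 117 and 121 (-0.20, SE 0.0776). Both had limma adjusted p = 0.998. In 20 potassium channel genes and 15 sodium, calcium and HCN channel genes 0 had an unadjusted p under 0.05. The medians of these lists were 0.0019 and -0.0302.

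Microglial and complement genes were mostly above 0, and 1 pool was far above the rest. Of 22 measured, 20 were above 0, with a median of 0.137, and their list score, the mean log2 value relative to PBS_isolated, was -0.00602, -0.0343 and 0.0404 in the isolated pools and 0.0135, 0.497 and 0.0404 in the enriched ones. The summed signal of the 22 was 2692 to 2805 in PBS_isolated and 2734, 3936 and 2797 in PBS_enriched. PBS_enriched replicate 2 was therefore the high pool, and without it the median was 0.0217. C1qb, a chain of complement C1q, had 97.4, 80.8 and 117 in PBS_isolated and 126, 160 and 111 in PBS_enriched (0.37, SE 0.194). Cd74, the invariant chain of class II MHC, was 152 in that pool and 28.4 to 59.7 in the other 5 (0.72, SE 0.392). Tyrobp, an adaptor of microglial receptors, was the 1 member with separate groups (4.55% of the 22, against 5.5% of genes). Its signals were 38.4, 34.9 and 49.5 against 54.8, 60.5 and 54 (0.35, SE 0.132; limma adjusted p = 0.998). Aif1, the common microglial stain target, was at -0.10 (SE 0.144) and in a dimmer probe set at 0.17. After KA the median was -0.332, the opposite sign.

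Reactive astrocyte genes were high in the same pool but also in PBS_enriched replicate 3. Of 12 measured 9 were above 0, with a median of 0.111, and scores were -0.0431, 0.0335 and 0.00962 against 0.0191, 0.227 and 0.126. Hspb1, a small heat shock protein, had 34.3, 47.7 and 24.5 in PBS_isolated and 45.3, 68.1 and 59.6 in PBS_enriched (0.52, SE 0.161; limma adjusted p = 0.998). A2m, the protease trap alpha-2-macroglobulin, had 74.9, 86.1 and 71.6 against 92.8, 113 and 91.1 (0.29, SE 0.119), and the tetraspanin gene Cd9 had 531, 537 and 533 against 655, 631 and 571 (0.21, SE 0.0896). The last pair were higher in each enriched pool, whereas Gfap, the classical marker of reactive astrocytes, had 2140, 1820 and 1770 against 1660, 2150 and 1880 and a difference of -0.017 (SE 0.133). Without PBS_enriched replicate 2 the list median was 0.0629. After KA the list median was -0.184, the opposite sign, with 1 of the 12 above 0. Among 22 genes of resting astrocytes the median was 0.00365, of changing sign between settings. F3, the tissue factor gene, was the 1 with separate groups (4.55%, against 5.5% of genes). It had 64.8, 70 and 71.5 against 84.8, 85.5 and 92.7 (0.29, SE 0.111). After KA the F3 difference was -0.41 (SE 0.111).

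Some myelin genes were higher in enriched pools. In 5 of 17 measured the groups were separate on the higher side (29.4%, against 5.5% of genes) and in 0 on the lower (against 6.23%). On the higher side 3 had an unadjusted p under 0.05 (17.6%, against 2.05%), although the list median was 0.00606 and turned negative in 3 of 17 settings. Mag, a myelin adhesion protein facing the axon, had 684, 727 and 683 in PBS_isolated and 916, 783 and 779 in PBS_enriched (0.23, SE 0.084; limma adjusted p = 0.998). Tspan2 had 743, 850 and 957 against 1080, 1060 and 1030 (0.32, SE 0.12), Cryab, a small heat shock protein of oligodendrocytes, 144, 143 and 141 against 188, 173 and 158 (0.24, SE 0.0881), and the myelin enzyme gene Cnp 2020, 2070 and 1920 against 2270, 2100 and 2290 (0.15, SE 0.0911). Mbp, the abundant myelin basic protein gene, had 5050, 4830 and 5040 against 5030, 4400 and 4930 and a difference of -0.057 (SE 0.0837), and a second Mbp probe set was at 0.027. The most abundant myelin transcript therefore did not go with the others.

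**Figure D4:**
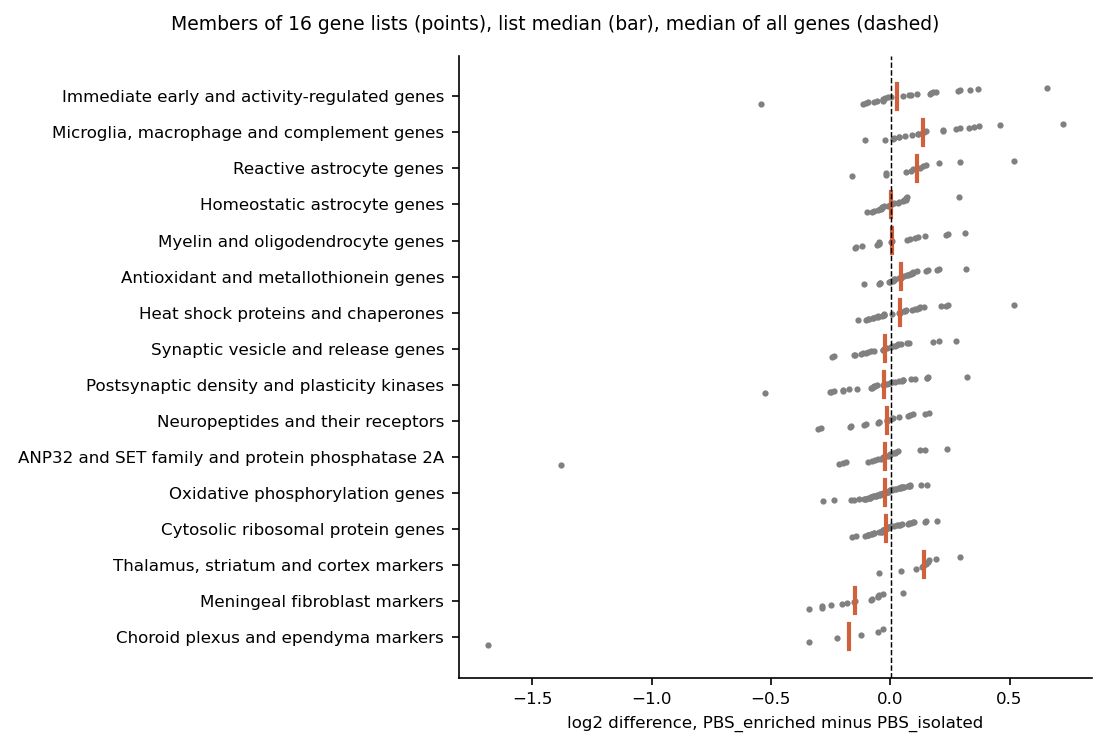
Log2 differences (PBS_enriched minus PBS_isolated, horizontal) of the measured members of 16 gene lists, 1 point per gene, with the list median as an orange bar and the median of all genes, 0.00292, as a dashed line. Microglial, reactive astrocyte and thalamus, striatum and cortex medians lie right of the dashed line and choroid plexus and meningeal medians left of it; Anp32a, at -1.38, stands far from its list.

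Among markers of neighbouring tissue, those of thalamus, striatum and cortex had list scores that did not overlap between the groups. Lists were not tested. Scores of 3 pools against 3 cannot give an exact permutation p below 0.1, and 41 lists were compared. In the thalamus, striatum and cortex list 9 of 10 measured genes were above 0, with a median of 0.143, the highest among the 41 lists with a measured member. Scores were -0.0179, 0.0212 and -0.00334 in PBS_isolated and 0.172, 0.0998 and 0.128 in PBS_enriched, with no overlap, and summed signals were 1359 to 1426 and 1486 to 1581. Pde10a of striatal neurons had 183, 198 and 187 against 217, 213 and 210 (0.16, SE 0.103), Rgs9 was at 0.15 (SE 0.092) and Gng7 at 0.16 (SE 0.0957). The defining striatal receptors were near the bottom of the range, Drd1 at 32.4 to 54.6 and Drd2 at 32.2 to 43.8, below the filter. Nr4a2, the 1 member with an unadjusted limma p under 0.05 (10%, against 2.05% of genes higher), belongs to the immediate early list as well. The part of neighbouring tissue in the differences of single genes was not tested.

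Choroid plexus markers were high in 1 isolated pool, and meningeal markers overlapped between the groups. All 6 measured choroid plexus markers were below 0, with a median of -0.175, and Ttr, which choroid plexus makes in bulk, had 2720, 254 and 87.2 in PBS_isolated and 110, 142 and 97.7 in PBS_enriched. PBS_isolated replicate 1 was the high pool, and without it the list median was -0.0821. Of 15 meningeal fibroblast markers 14 were below 0, with a median of -0.148, and scores ran from -0.426 in PBS_enriched replicate 1 to 0.192 in PBS_isolated replicate 1, with overlap. Dcn, a collagen-binding proteoglycan, had 169, 165 and 148 against 93.7, 154 and 160 (-0.25, SE 0.186). Without PBS_enriched replicate 1 the meningeal median was -3.58e-05. Igf2, which is in both lists and is a growth factor of these tissues, was at -0.34 (SE 0.187). Summed signals were 1218 to 4278 and 1121 to 1392 for choroid plexus and 2678 to 3847 and 2011 to 3620 for meninges.

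**Figure D5:**
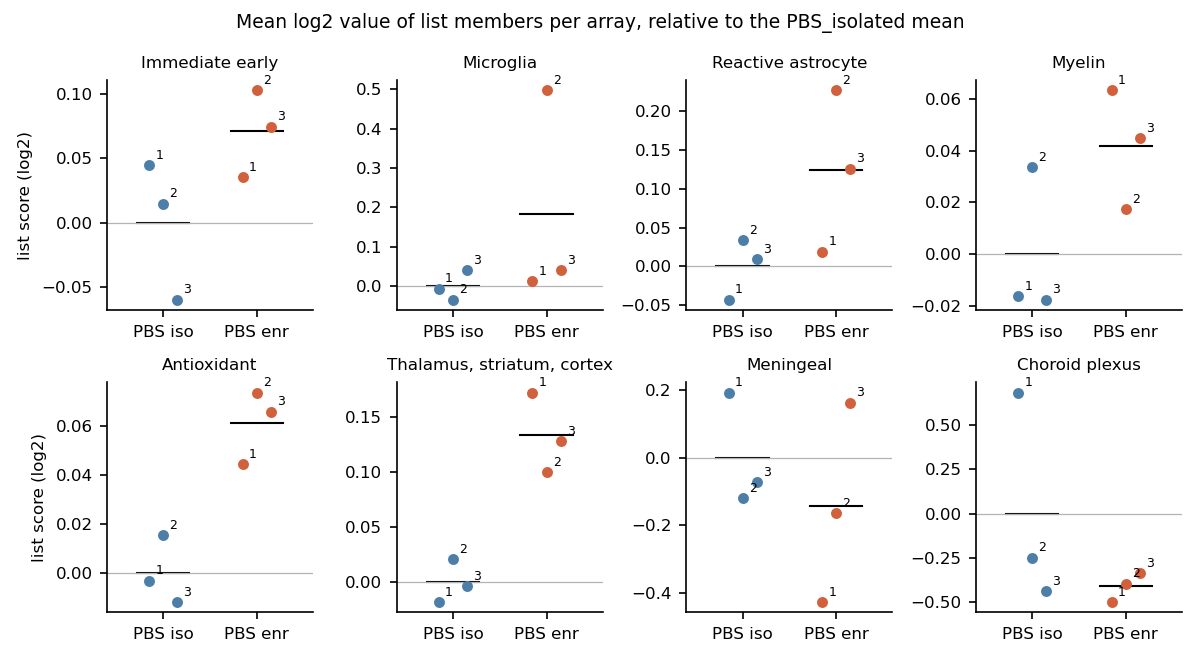
List scores (mean log2 value of the measured members relative to the PBS_isolated mean, vertical) of 8 gene lists in each PBS array, numbered by replicate, with the group mean as a bar. PBS_enriched replicate 2 stands apart in the microglial panel at 0.497 and PBS_isolated replicate 1 in the choroid plexus panel at 0.682; the antioxidant and the thalamus, striatum and cortex scores do not overlap.

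The list score of antioxidant and metallothionein genes was slightly higher in each enriched pool. It is 1 of 41 list scores, and no list was tested. Of 29 antioxidant and metallothionein genes 24 were above 0, with a median of 0.046, and scores were -0.00323, 0.0153 and -0.012 in PBS_isolated and 0.0444, 0.0738 and 0.066 in PBS_enriched. The list median stayed above 0 in each of 17 other settings, and 5 members were higher without overlap (17.2%, against 5.5% of genes) and 1 was lower (3.45%, against 6.23%). At an unadjusted limma p under 0.05, 2 were higher (6.9%, against 2.05% of genes) and 0 lower (against 2.02%). Txnip, an inhibitor of thioredoxin that is induced by glucose, had 145, 162 and 153 against 165, 228 and 197 (0.32, SE 0.112; limma adjusted p = 0.998). Most other members instead detoxify oxidants or bind metals. The glutathione peroxidase gene Gpx3 had 123, 127 and 99.4 against 134, 143 and 131 (0.21, SE 0.0863), and the peroxiredoxin gene Prdx5 593, 575 and 541 against 631, 624 and 643 (0.15, SE 0.0834). After KA the list median was -0.0109. Heat shock and chaperone genes had a median of 0.0395 over 32, which was negative in 1 of 17 settings, with 3 at an unadjusted p under 0.05 on the higher side (9.38%, against 2.05% of genes): Hspb1, Cryab and Hspa1a (0.21, SE 0.0973).

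Genes of the basic machinery of the cell differed by hundredths of a log2 unit. Of 54 oxidative phosphorylation genes 36 were below 0, with a median of -0.0234, and 0 had an unadjusted p under 0.05. Atp5f1a, a subunit of ATP synthase, had 1960, 1940 and 1890 in PBS_isolated and 1680, 1740 and 1790 in PBS_enriched (-0.15, SE 0.0768; limma adjusted p = 0.998). Of 39 cytosolic ribosomal protein genes 25 were below 0 with a median of -0.0174, while Rpl14 (0.20, SE 0.0861) was higher in each enriched pool. In 57 genes of the mitochondrial ribosome and import the median was 0.0216, and mrpl11, with 246, 240 and 250 against 283, 285 and 303, was at 0.23 (SE 0.0689). Proteasome (28 genes, median 0.0088), cholesterol synthesis (17, median 0.0197), apoptosis (18, median 0.00345), axon guidance (29, median -0.00187) and RNA splicing (48, median 0.00886) lists lay within 0.02 of 0, and each of these 5 changed sign in at least 1 setting. Among their members Rbm14, a co-activator and splicing regulator, had 56.1, 70.9 and 60.8 against 80.7, 82.3 and 78.1 (0.30, SE 0.0887; adjusted p = 0.998), and 0.40 (SE 0.0887) after KA. Slit1, a guidance ligand, was lower without overlap (-0.32, SE 0.113), and Tnr, an extracellular matrix protein of perineuronal nets, was higher without overlap (0.27, SE 0.0961).

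Stress hormone, clock and neurogenesis genes were examined because isolation and enrichment are known to act on them. In 17 glucocorticoid-related and 15 clock genes limma gave 0 with an unadjusted p under 0.05, and in 21 immature neuron and neurogenesis genes 0 as well. The medians were 0.00739, 0.0128 and -0.023, and each turned sign in at least 1 of 17 settings. Dcx, the marker of newborn granule neurons, had 58.4, 60.9 and 67.8 in PBS_isolated and 68.2, 41.2 and 52.5 in PBS_enriched (-0.18, SE 0.115). Hes5, a Notch target of neural progenitors, had 88.6, 94.5 and 74 against 73.7, 58.7 and 64.4 (-0.31, SE 0.162), lower in each enriched pool. In whole hippocampus fewer cells of a type and less RNA per cell cannot be told apart. For markers of dentate granule cells (10 genes) the median, 0.0551, was above 0 in each setting, although 3 of the 10 were below 0. In limma 0 had an unadjusted p under 0.05, and 0 had separate groups. Calb1, a calcium buffer of granule cells, was at 0.20 (SE 0.0953) with overlap. For markers of pyramidal cells (16 genes) the median, 0.00436, changed sign between settings. Crym, a thyroid hormone-binding protein of CA1, was lower in each enriched pool, at 1720, 1690 and 1640 against 1550, 1360 and 1490 (-0.20, SE 0.0798, limma adjusted p = 0.998).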

How the data were processed

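The deposited values are probe set signals, array intensity on a linear scale, summarised by steps not given in the sources used here. In the files every array has a mean of 150 once the top and bottom 2% are trimmed. Of 15923 probe sets, 57 controls were left out, and the 60% of the other 15866 with the highest mean over 12 arrays were tested (9520), on log2(signal + 17), which understates differences of dim genes. The number of arrays limits the precision.

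Gene names came from the array annotation (12789 probe sets with 1 symbol, 312 with several, 2822 unlisted), matched by Entrez ID to RefSeq for 12754. Lists used each gene's brightest tested probe set.

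limma 3.58.1 in R 4.3.3 fitted 1 mean per group over 12 arrays (13.07 degrees of freedom), with two-sided p, Benjamini-Hochberg adjustment across the 9520 and a threshold of 0.05. Data of this comparison were simulated with normal noise over 9520 probe sets. There 64.2% of 67 changed by a log2 of 0.5 were called, 98.5% of 67 changed by 1 and 100% of 66 changed by 2. Among 188 calls 6.91% were false. So many changes make the adjustment more lenient than in the data, where 1 probe set passed, so these shares are likely too high for this comparison. Lists were described by counts and medians, with no test. Named genes were the called one, the 12 higher and 12 lower of smallest p, the 6 of largest size without overlap on each side, up to 4 members a list, immediate early members by value or range, and 8 genes fixed by name (Mbp, Ttr, Arc, Fos, Npy, Bdnf, Aif1, Gfap). Pde10a, Drd1, Drd2, Wfs1, Prox1 and any other defining markers were given as checks. The comparison, lists and rules were chosen with earlier results of these data known. Alternatives changed the samples fitted, offset, filter, scaling, weights, trend and each PBS pool in turn.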

Additional observations from a re-analysis of the deposited data

How the results depend on the processing

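The number of probe sets passing in limma was 1 in the reported setting, and Anp32a passed in each of 16 others, with differences from -1.491 to -1.217 and adjusted p from 0.000241 to 0.0242. The number was 2 among the top 40% and with array weights, where Ivd joined, and 1 to 2 when a pool was left out, with Akap17a added without PBS_isolated replicate 2. Ivd had adjusted p from 0.0433 to 0.786 over its settings. Probe sets with p under 0.05 before adjustment numbered 748 with no filter, 248 in the top 40% and 776 with array weights, against 401. They numbered 564 when the PBS arrays were fitted alone, and 322 to 551 with a pool left out. A replicate block left 1 passing and 471 with p under 0.05, and it changed no other call. Deviations of same-numbered PBS pools correlated at -0.00315, 0.0791 and 0.0765, and those of differently numbered pools at -0.136 to 0.0786. With 3 pools a side these values cannot decide whether the numbers pair the pools. The immediate early median was 0.0816 with no filter and 0.0773 in the top 40%, against 0.0298, 0.0136 with equal medians and 0.00903 to 0.0663 with a pool left out. That of thalamus, striatum and cortex markers was 0.11 with an offset of 50, 0.0786 with no filter and 0.0999 to 0.163 with a pool left out. Among 100 named genes 3 took the other sign in some setting: Gfap, at 0.01237 with quantile normalization and -0.1101 to 0.07307 with a pool left out, Aif1, at -0.2919 to 0.01138, and Mbp, at -0.09418 to 0.00307. For these the cause was not tested. With 3 pools a side, log2 differences of 0.5 were often missed in simulated data, and dim genes had the largest errors.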

Other observations

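Blood, vessel and interferon genes were measured in the same arrays. Of 12 endothelial and mural cell markers 9 were above 0, with a median of 0.0472 that turned negative in 2 of 17 settings, and with limma 0 had an unadjusted p under 0.05. The class I MHC and interferon-response genes split: of 12 measured, B2m, the light chain of class I MHC, had 1120, 1090 and 996 in PBS_isolated and 1120, 1400 and 1210 in PBS_enriched (0.21, SE 0.0935), and Mx1, an interferon-induced GTPase, had 52.2, 42.8 and 69.6 against 50.1, 38.3 and 36.1 (-0.29, SE 0.13). Both genes overlapped between the groups, and PBS_enriched replicate 2, the pool with the highest microglial score, also had the highest B2m. Of 3 erythrocyte markers 2 were above 0, with a median of 0.124 that turned negative in 1 of 17 settings. The 1 below 0 was Slc4a1, the anion exchanger of red cells, which had 65.7, 45.8 and 72.1 against 46.9, 28.5 and 47.6 (-0.43, SE 0.191) and was at 0.44 after KA, with a dimmer probe set at 0.14 after PBS. Psma7, a proteasome subunit, was higher in each enriched pool, at 504, 527 and 552 against 581, 622 and 611 (0.19, SE 0.0875). None of these 4 genes passed in limma (adjusted p = 0.998).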
